A study of Mus musculus with 2 samples.

Results

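The regions described here are the Usp16 ChIP-seq peaks that lie at the ends of 2 or more protein-coding genes at once. A peak was a member when it overlapped, by 1 bp or more, the windows reaching 1 kb to either side of an annotated end (the first or the last base of a gene) of at least 2 different protein-coding genes. On the assembled mouse chromosomes 614 peaks met this rule, of 2466 peaks at an end of any protein-coding gene, of 5046 peaks in all on these chromosomes and of 5079 peaks listed. They made up 24.9% of the peaks at coding gene ends (95% interval 23.2 to 26.7%) and 12.2% of all peaks on assembled chromosomes (11.3 to 13.1%). Of the 614, 599 reached exactly 2 coding genes and 15 reached 3, while 1852 other peaks reached exactly 1 coding gene and 2580 reached none. Intervals of shares are exact binomial and those of medians rest on order statistics, and they cover counting error within 1 list only.

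The chromatin came from bone marrow cells positive for c-Kit and Sca-1, surface proteins by which blood stem and progenitor cells are enriched, of Mx1 Cre:Usp16loxp/loxp mice. These animals carry Usp16 alleles flanked by loxP sites together with the Cre recombinase under the interferon-responsive Mx1 promoter, and neither induction of the recombinase nor the age or number of the mice is given. The study made 1 anti-Usp16 library and 1 IgG library from such cells, with no replicate and no wild-type group. Only the anti-Usp16 peak list was analysed, the IgG signal was not analysed here, and read depth is unknown, so nothing below could be tested across samples.

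Usp16 is a deubiquitinase that removes ubiquitin from histone H2A, a mark placed by Polycomb repressive complex 1 and associated with silent promoters. In mammalian genomes many genes start close to the start of a neighbour on the opposite strand, and such divergent or bidirectional promoters often lie in CpG islands and serve housekeeping genes of DNA repair, mitochondria and RNA metabolism. Other neighbours follow each other on the same strand in tandem, with the stop of one gene close to the start of the next, or converge tail to tail with both stops together.

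The sequences that frame the results are the promoters between neighbouring starts. The first 5 below belong to head-to-head pairs with a shared peak and stand for short and longer spacings and for promoters with and without the CTCGCGA element described later. The sixth lies between 2 histone genes with a shared peak and is poor in CpG. The last lies between a head-to-head pair that had no peak at either gene. All were chosen after their values were seen. Each is a RefSeq promoter window of GRCm38.p6, written 5′ to 3′ on the strand of the first-named gene, whose start is base 251, and capitals mark the stretch from the partner's start to that start. The windows are chr3:105959248-105959547 on the plus strand for Wdr77, chr9:22002738-22003037 plus for Prkcsh, chr5:140321372-140321671 plus for Nudt1, chr5:135778399-135778698 plus for Mdh2, chr17:33955616-33955915 minus for Rps18, chr13:21753826-21754125 plus for H2bc15 and chr7:140882144-140882443 plus for Psmd13.
Wdr77 with Atp5pb: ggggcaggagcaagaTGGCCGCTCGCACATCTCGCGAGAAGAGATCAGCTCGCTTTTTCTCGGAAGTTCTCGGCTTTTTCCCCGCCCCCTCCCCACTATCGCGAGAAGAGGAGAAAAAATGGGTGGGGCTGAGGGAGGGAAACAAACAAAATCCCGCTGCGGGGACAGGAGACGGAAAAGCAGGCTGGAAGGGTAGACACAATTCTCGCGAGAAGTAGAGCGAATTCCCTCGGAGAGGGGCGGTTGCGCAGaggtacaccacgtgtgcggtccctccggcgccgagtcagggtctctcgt
Prkcsh with Ccdc151: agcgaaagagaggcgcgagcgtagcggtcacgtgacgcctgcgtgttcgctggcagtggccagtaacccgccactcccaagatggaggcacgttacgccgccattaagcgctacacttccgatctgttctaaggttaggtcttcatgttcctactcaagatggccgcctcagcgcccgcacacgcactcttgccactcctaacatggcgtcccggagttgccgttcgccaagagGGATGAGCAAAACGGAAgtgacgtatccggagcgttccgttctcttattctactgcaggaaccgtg
Nudt1 with Mad1l1: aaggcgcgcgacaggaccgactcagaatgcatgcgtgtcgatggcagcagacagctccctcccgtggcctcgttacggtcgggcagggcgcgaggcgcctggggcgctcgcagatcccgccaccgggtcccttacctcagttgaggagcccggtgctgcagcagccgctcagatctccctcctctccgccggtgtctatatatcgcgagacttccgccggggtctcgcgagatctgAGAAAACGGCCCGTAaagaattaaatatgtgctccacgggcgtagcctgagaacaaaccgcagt
Mdh2 with Styxl1: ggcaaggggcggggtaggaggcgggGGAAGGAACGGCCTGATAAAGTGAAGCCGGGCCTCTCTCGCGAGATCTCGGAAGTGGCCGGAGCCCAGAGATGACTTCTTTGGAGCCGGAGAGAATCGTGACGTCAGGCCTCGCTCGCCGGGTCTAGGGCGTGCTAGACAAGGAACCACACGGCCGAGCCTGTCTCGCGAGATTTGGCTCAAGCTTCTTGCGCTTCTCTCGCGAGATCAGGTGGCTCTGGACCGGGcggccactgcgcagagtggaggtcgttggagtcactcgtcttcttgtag
Rps18 with Vps52: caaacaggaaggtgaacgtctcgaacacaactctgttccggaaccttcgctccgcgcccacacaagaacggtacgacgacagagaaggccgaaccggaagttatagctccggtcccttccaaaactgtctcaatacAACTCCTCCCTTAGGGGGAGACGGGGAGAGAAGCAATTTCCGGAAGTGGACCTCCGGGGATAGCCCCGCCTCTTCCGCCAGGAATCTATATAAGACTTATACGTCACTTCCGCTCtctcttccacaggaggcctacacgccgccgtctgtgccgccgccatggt
H2bc15 with H2ac15: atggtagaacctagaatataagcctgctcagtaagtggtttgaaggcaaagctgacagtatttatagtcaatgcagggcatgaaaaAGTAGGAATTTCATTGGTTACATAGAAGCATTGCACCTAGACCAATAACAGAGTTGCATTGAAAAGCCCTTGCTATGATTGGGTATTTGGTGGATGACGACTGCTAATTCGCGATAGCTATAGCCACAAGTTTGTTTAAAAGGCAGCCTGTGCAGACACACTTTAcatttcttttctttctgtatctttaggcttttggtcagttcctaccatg
Psmd13 with Sirt3: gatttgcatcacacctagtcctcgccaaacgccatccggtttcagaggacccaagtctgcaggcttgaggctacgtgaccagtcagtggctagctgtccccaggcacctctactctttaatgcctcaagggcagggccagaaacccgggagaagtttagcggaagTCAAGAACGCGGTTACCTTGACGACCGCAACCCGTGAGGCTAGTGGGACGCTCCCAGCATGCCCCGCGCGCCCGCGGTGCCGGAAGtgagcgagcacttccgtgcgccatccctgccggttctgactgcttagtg

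The shared peaks joined 644 pairs of coding genes, each pair at a single peak, and touched 1224 genes in all. That was 5.59% of the 21887 protein-coding genes, where 13.9% carried a gene-end peak of any kind. Among the 3033 genes with a gene-end peak, 40.4% had one that they shared with another coding gene, and 33 genes sat both at a shared peak and at a peak of their own. In 405 of the 644 pairs both gene ends lay inside the peak itself, in 180 pairs 1 end did, and in 59 pairs the peak reached the windows without covering either end. A predicted gene name (Gm or LOC with a number, or a Rik clone) occurred at 44 shared peaks, so those pairs rest on less certain gene models.

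The 12 highest-scoring shared peaks ranged from 227 to 408 in the peak caller's score. The highest, with a score of 408 and a width of 769 bp (chromosome 3, 108209904 to 108210672), lay where the last bases of Sypl2, a synaptophysin-like membrane protein gene, overlap the first bases of Atxn7l2. The next, with a score of 402 (chromosome 10, 79908647 to 79909634), lay at the start of Med16, which encodes a subunit of the Mediator complex that links transcription factors to RNA polymerase II, with the stop of R3hdm4 at a spacing of 1114 bp. The third scored 396 (chromosome 3, 53463185 to 53464073) between the divergent starts of Nhlrc3 and Proser1, 537 bp apart. The first and second peaks of this ranking were therefore tandem arrangements and the third a divergent one.

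A score of 336 belonged to a peak (chromosome 9, 108516537 to 108517461) between Qars, the glutaminyl-tRNA synthetase gene, and Qrich1. Its midpoint lay 17 bp from the start of Qrich1 and 1058 bp from the stop of Qars. The peak of Wdfy1 and of Mrpl44, the gene of a large-subunit protein of the mitochondrial ribosome, scored 318, and that of Sirt4, a mitochondrial sirtuin, and Pxn, the focal adhesion protein paxillin, scored 292 over 2069 bp and also reached 3 genes that do not encode proteins. Atp5pb, which encodes a subunit of the peripheral stalk of ATP synthase, and Wdr77, the partner of the arginine methyltransferase Prmt5, shared a peak of 273 (chromosome 3, 105958957 to 105959963). This group mixes mitochondrial, cytoskeletal and translation genes.

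Ccdc151, needed to dock dynein arms on motile cilia, and Prkcsh, the β subunit of glucosidase II, had starts 16 bp apart and a peak of 253 (chromosome 9, 22002624 to 22003236). Mad1l1, a spindle checkpoint gene, and Nudt1, whose product hydrolyses oxidised purine nucleotides, had starts 14 bp apart and a peak of 243 (chromosome 5, 140321250 to 140322049). Fbxo38 with Spink10 (278), Zfp668 with Zfp646 (239) and Mkks with Slx4ip (227) completed the 12. At the other end of the list, just above its lowest score, were the shared peaks of Smim7 with Tmem38a at 50.02, Cdc26 with Prpf4 at 50.05 and Fbxo9 with Cilk1 at 50.07. Cdc26 encodes a subunit of the anaphase-promoting complex and Prpf4 a splicing factor.

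**Figure D1:**
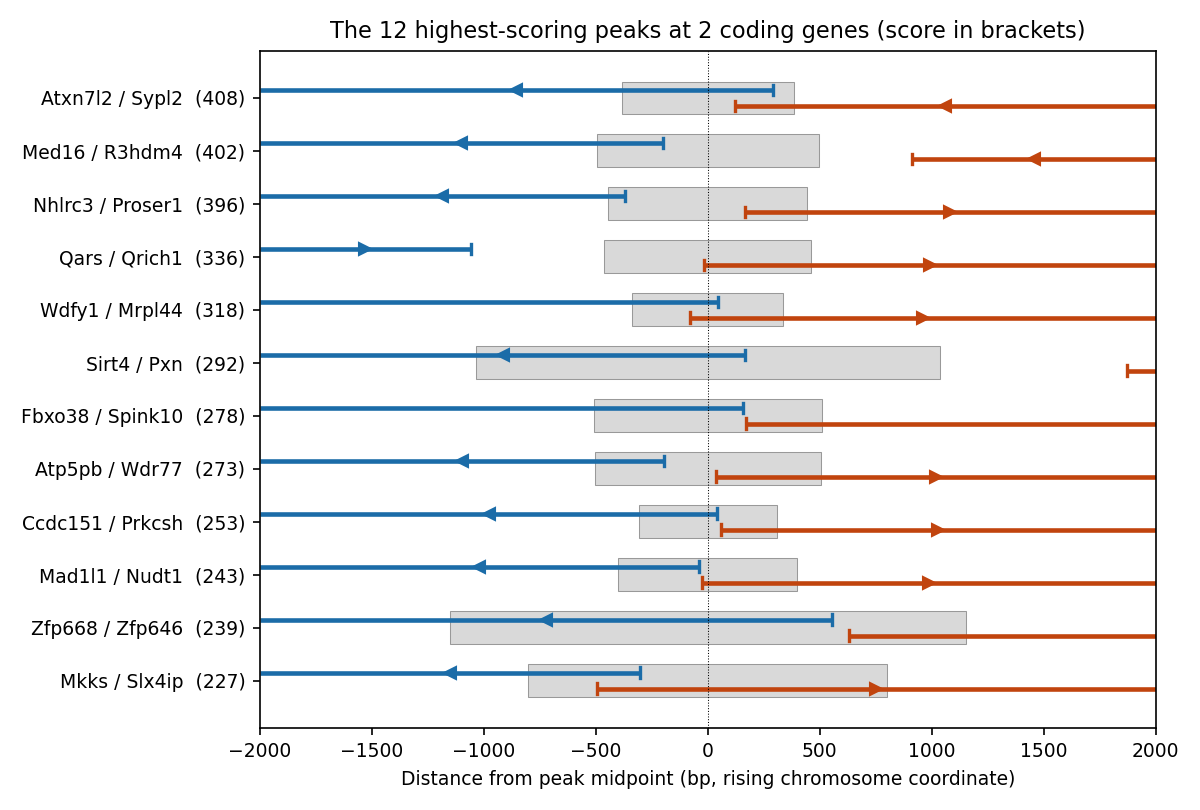
Map of the 12 shared peaks with the highest scores, one per row, with distance from the peak midpoint in bp on the horizontal axis. Grey bars are peaks, the blue and red lines are the coding genes of the pair with a tick at each end in view and an arrowhead for the strand where it was given, and the score stands in brackets; the rows run from 408 at the top to 227 at the bottom.

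Strand was given for both genes in 504 of the 644 pairs. Of these, 340 pairs were head-to-head, with both starts at the peak (67.5%, 63.2 to 71.5%), and 133 were tandem, with the stop of one gene and the start of the next (26.4%, 22.6 to 30.5%). Only 12 were tail-to-tail (2.38%). A further 11 pairs had the starts of both genes together on the same strand, 7 had a start and a stop together on opposite strands, and 1 had stops together on the same strand. The remaining 140 pairs, with a strand missing for at least 1 gene, had a median spacing of 220.5 bp. The layout depends on the reach that is allowed: with windows of 5 kb, 39.5% of coding-end peaks were shared and 39.8% of pairs were head-to-head.

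Head-to-head starts at shared peaks were close together. Their median spacing was 165.5 bp (136 to 206), with quartiles of 68 and 339 bp and a range of 1 to 1972 bp, and 243 of the 340 pairs (71.5%) had starts within 300 bp. In 224 pairs the genes lay apart, and in 116 they overlapped at their first bases. Both starts lay inside the peak in 268 of the 340 pairs (78.8%), 1 start in 59 pairs and neither in 13. The peaks thus mostly covered the whole stretch between the divergent starts. The closest pairs had starts 1 bp apart: Klhl18 with Kif9, a kinesin gene, at a score of 126, and Tcta with Rhoa, the small GTPase gene, at 58.5. Dtl, which encodes a substrate receptor of the Cul4 ubiquitin ligase, and Ints7, an Integrator subunit gene, started 4 bp apart, but the midpoint of their peak, of score 64.3, lay 592 bp from the nearer start and the peak covered neither.

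The midpoint of a head-to-head peak lay a median of 83.5 bp (73.5 to 93.5) from the nearer start and 228.5 bp (197 to 253.5) from the farther one, and 124 bp (105.5 to 145) from the centre between them. At peaks of 1 coding gene that reached its start alone, the midpoint lay a median of 131 bp (121.5 to 142) from that start. With 2 starts at hand the nearer one is closer by construction, so these distances describe position and are not compared.

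At tandem pairs the peak lay on the start rather than on the stop. The midpoint was nearer to the start than to the stop in 120 of 133 pairs (90.2%, 83.9 to 94.7%), and in 69 of the 74 pairs whose ends were over 500 bp apart (93.2%, 84.9 to 97.8%). The start lay inside the peak in 114 pairs (85.7%) and the stop in 42 (31.6%). In 75 pairs the peak covered the start and not the stop, and in 3 the reverse. These counts use the closest ends reached, so the peak could also cover the start of the gene counted by its stop. The peak of H2bc6 and H1f4, among the 3, spanned all of H1f4. That of H3c15 and H2ac19, with its midpoint nearer to the stop, spanned all of H2ac19. The median distance of the midpoint was 161 bp (119 to 211.5) to the start and 763 bp (641.5 to 858) to the stop, at a median spacing of 600 bp (462 to 735) between the ends.

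The peak of Polr2a and Slc35g3 scored 201 (chromosome 11, 69757798 to 69759655), with its midpoint 93.5 bp from the start of Polr2a, the gene of the largest subunit of RNA polymerase II, and 1157.5 bp from the stop of Slc35g3. The peak of Ppox and Usp21, of score 168 (chromosome 1, 171280842 to 171281995), had its midpoint 225.5 bp from the start of Ppox, a heme synthesis gene, and 530.5 bp from the stop of Usp21, which encodes another deubiquitinase reported to act on histone H2A. The highest-scoring peak was an exception, since the midpoint at Atxn7l2 and Sypl2 lay 289 bp from the Atxn7l2 start and 122 bp from the Sypl2 stop, in a pair that overlaps by 167 bp.

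**Figure D2:**
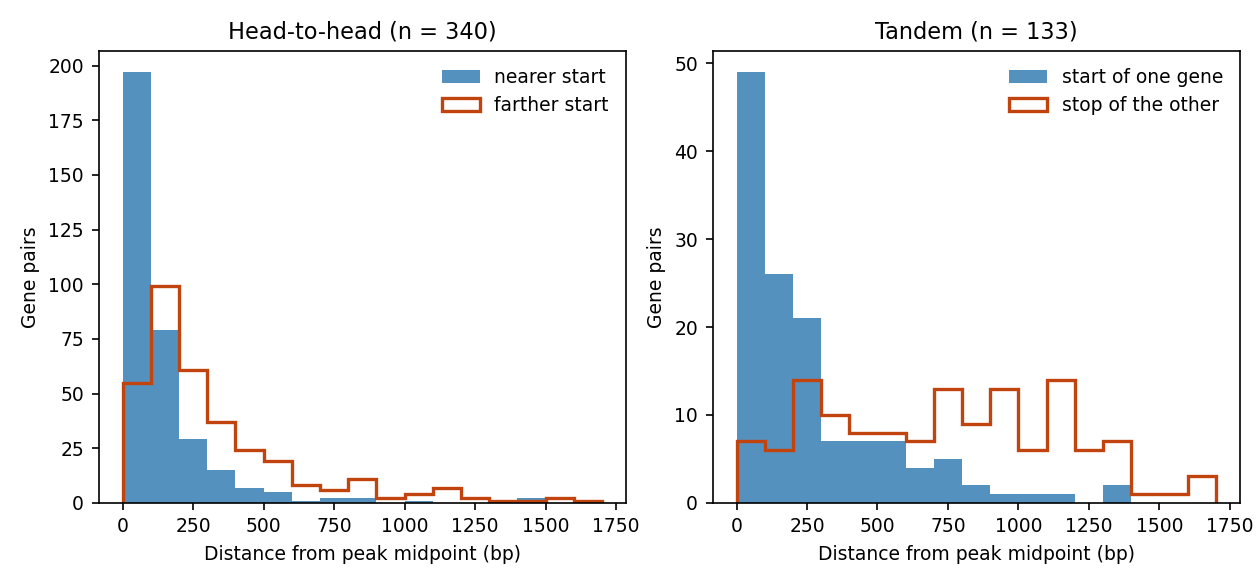
Distance in bp from the peak midpoint to the gene ends, as numbers of gene pairs per 100 bp. Left, the 340 head-to-head pairs, with the nearer start filled and the farther start as an outline (medians 83.5 and 228.5 bp); right, the 133 tandem pairs, with the start of one gene filled and the stop of the other as an outline (medians 161 and 763 bp).

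Tail-to-tail pairs were rare and often off the stops themselves. Layout followed the closest ends reached, so a peak of this class could also reach a start. The peak of Rpl10a and Tead3 spanned all of Rpl10a, and that of H1f6 and H4c3 all of H4c3. Their 12 pairs had a median spacing of 124 bp, and both stops lay inside the peak in 3 pairs and neither in 7. The highest score among them was 171 at Dvl1, a Wnt signalling gene, and Tas1r3, a taste receptor gene (chromosome 4, 155859187 to 155859885), with stops 35 bp apart, followed by 106 at Hrc and Ppfia3. The 720 bp peak at Erbb2, a receptor tyrosine kinase gene, and Mien1, with stops 8 bp apart and a score of 53.1, had its midpoint 1247.5 bp from the Erbb2 stop. Of the 481 shared peaks for which every gene had a strand, 4 reached no start at all (0.832%).

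Counted per gene and peak, shared peaks reached the start of the gene in 860 cases and the stop alone in 164, a share of starts of 84.0% (81.6 to 86.2%). Peaks of 1 gene reached its start in 1430 cases and its stop in 63, or 95.8% (94.6 to 96.7%). Cases that reached both ends of a short gene (48 at shared peaks and 20 at peaks of 1 gene) and those without a strand were left out of these shares. A larger share of the gene assignments at shared peaks was to a stop. The rule itself favours this, since a peak at a start that also reached a neighbour's stop counted as shared. These shares are therefore a description. Over the genome, 13.4% of the 17492 starts with strand and 1.65% of the stops had a peak within 1 kb, near neighbours included.

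The same question was put from the side of the genes, by asking how many close neighbours hold a shared peak. There were 3541 pairs of coding genes with ends within 1 kb, and 570 of them held one (16.1%). Among 896 head-to-head pairs 328 did (36.6%, 33.4 to 39.9%), among 506 tandem pairs 94 (18.6%, 15.3 to 22.2%) and among 725 tail-to-tail pairs 10 (1.38%, 0.663 to 2.52%). The head-to-head interval lay above the tandem one, and the tandem interval above the tail-to-tail one. Of 40 same-strand pairs with starts together 10 held a peak (25%, 12.7 to 41.2%), an interval that spans the tandem share and the head-to-head share. A further 1286 of the 3541 pairs had no layout because a strand was missing, and 9.56% of them held a shared peak (8.01 to 11.3%). Chromosome 18 alone gave 398 of the 3541 pairs, from 511 coding genes, and its part in the 16.1% was not tested.

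Lone ends give the background for these shares. Of 14072 starts with no other coding gene end within 2 kb, 9.81% had a peak within 1 kb (9.32 to 10.3%), and of 13828 such stops 0.542% did (0.427 to 0.679%). A head-to-head pair offers 2 starts, and if starts were independent, either of 2 lone starts would have a peak in 18.7% of cases. The head-to-head share of 36.6% was above that value and the tandem share of 18.6%, with 1 start per pair, was above the lone-start share. Lone starts were not matched to paired starts in promoter sequence or gene family, so the part of pairing in these differences was not tested. By distance between head-to-head starts the share was 32.9% (28.2 to 37.9%) at 100 bp or less, 41.8% (36.0 to 47.7%) at 101 to 300 bp, 41.4% (32.3 to 50.9%) at 301 to 500 bp and 31.4% (23.1 to 40.5%) at 501 to 1000 bp, and these intervals overlapped.

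**Figure D3:**
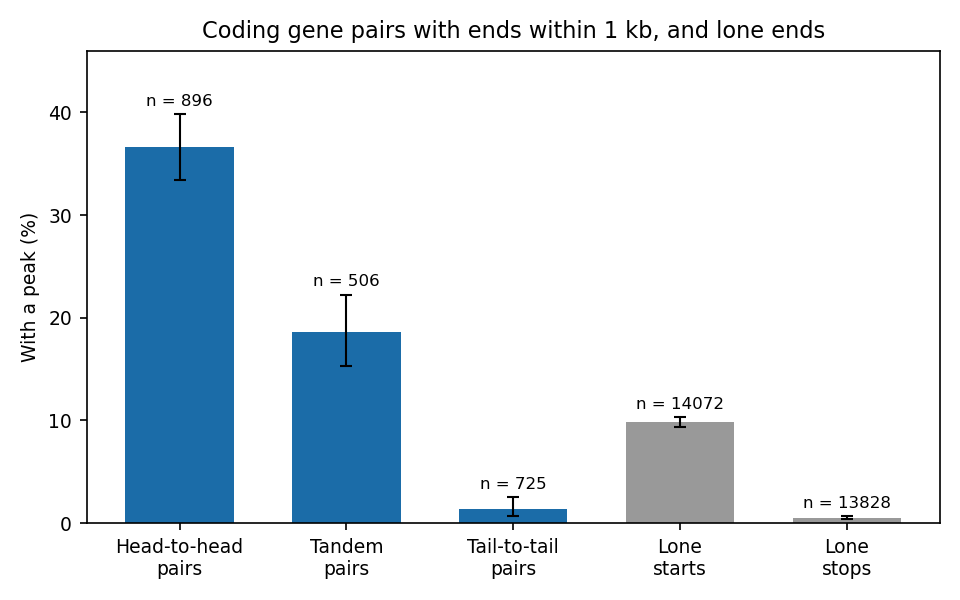
Percentage of coding gene pairs with ends within 1 kb that hold a shared peak, by layout (blue), beside the percentage of lone starts and lone stops with a peak within 1 kb (grey). Bars are shares, error bars exact 95% intervals and n the number of pairs or ends; the shares are 36.6, 18.6 and 1.38% for pairs and 9.81 and 0.542% for lone ends.

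Shared peaks differed little in score from peaks of 1 gene. The median score was 77.0 (73.7 to 80.1; quartiles 60.4 and 112) at shared peaks and 73.6 (72.1 to 76.0; quartiles 59.8 and 105) at peaks of 1 coding gene. Of the 614 shared peaks, 54.4% (50.4 to 58.4%) lay above the median of the peaks of 1 gene. The highest score was 408 among shared peaks and 582 among peaks of 1 gene, so the highest-scoring peak at a coding gene end was not a shared one. Within the shared class, 2-gene head-to-head peaks had a median of 80.3 (76.5 to 84.8, n = 329), tandem peaks 74.1 (68.8 to 79.0, n = 122), tail-to-tail peaks 67.2 (n = 9) and 3-gene peaks 64.7 (58.0 to 80.4, n = 15). Against peaks of 1 gene at its start, with a median of 73.4 (71.6 to 76.0, n = 1430), 59.3% of head-to-head peaks lay above (53.7 to 64.6%).

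Shared peaks were wider, with a median of 873 bp (842 to 911) against 760 bp (742 to 776) at peaks of 1 gene, and 64.2% of them exceeded the median of peaks of 1 gene (60.2 to 68.0%). Width enters the rule, because a wider peak reaches more windows, so this is a description. Over 4 groups of about equal size from narrow to wide peaks, 15.9, 23.2, 28.2 and 32.3% of coding-end peaks were shared. Inside these groups the median score of shared peaks differed from that of peaks of 1 gene by 1.04, -4.68, 1.18 and 3.60, and in each the interval of the share above the median included 50%. At matched width no difference in score could therefore be shown in this list.

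The median width of head-to-head peaks was larger where the starts were farther apart. For starts up to 100 bp apart the median width was 799.5 bp (737 to 872, n = 120), for 101 to 300 bp 875 bp (791 to 984, n = 116), for 301 to 500 bp 884.5 bp (779 to 956, n = 46) and for 501 to 2000 bp 937 bp (806 to 1139, n = 47). The matching median scores were 81.8, 81.5, 79.9 and 77.7. Neighbouring width intervals overlapped, so the order describes the list and no step of it stands apart. The widest shared peaks were those of Rpl10a and Tead3 at 3983 bp (score 92.2), Mrps18b and Ppp1r10 at 3494 bp (51.4), the predicted genes LOC108167694 and Gm20783 at 2849 bp (79.5), Hes7 and Aloxe3 at 2578 bp (64.4) and the histone genes H2ac18 and H3c14 at 2517 bp (51.2).

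**Figure D4:**
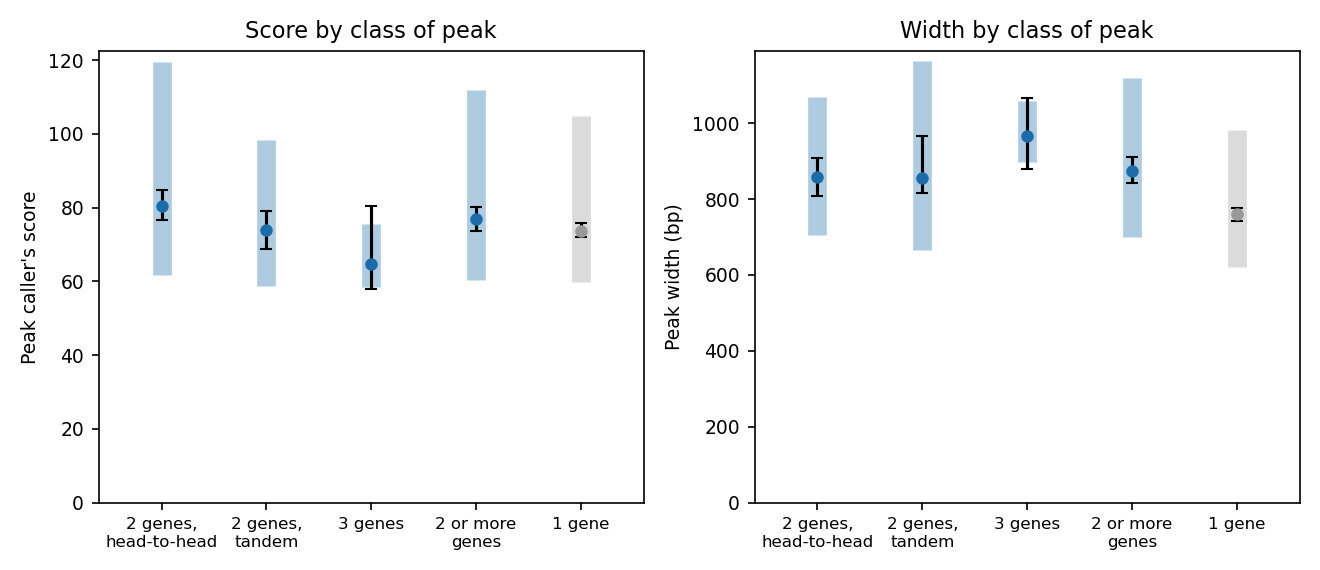
Peak caller's score (left) and peak width in bp (right) by class of peak. Points are medians with 95% order-statistic intervals and pale bars span the quartiles, for 2-gene head-to-head, 2-gene tandem, 3-gene and all shared peaks in blue and for peaks of 1 coding gene in grey; the medians of all shared peaks are 77.0 and 873 bp, those of peaks of 1 gene 73.6 and 760 bp.

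The 15 peaks at 3 genes joined compact clusters. The highest-scoring, at 106, lay at Rad17, a DNA damage checkpoint gene, with Taf9, a TFIID subunit gene, and Ak6, an adenylate kinase gene (chromosome 13, 100650958 to 100651544). Taf9 and Ak6 start together on the same strand. It was followed by Psd, Fbxl15 and Cuedc2 at 99.2, Cyb5d1, Naa38 and Tmem88 at 86.4, and Alg3, Eef1akmt4 and the joined gene model Eef1akmt4-ece2 at 80.4, where 2 of the 3 names stand for overlapping models. Hyal1, Naa80 and Hyal3, with 2 hyaluronidase genes, shared a peak of 70.9, and Tbcb, Polr2i and Ovol3 one of 70.2.

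In the other direction, 19 genes took part in 2 shared peaks each, with a different partner at either end. Rps18, a ribosomal protein gene of the small subunit, shared a peak of 142 with Vps52, a subunit gene of the GARP tethering complex, and one of 86.6 with B3galt4. Rpl4, of the large subunit, shared peaks of 128 with Snapc5 and 68.7 with Zwilch. Ddx5, an RNA helicase gene, shared peaks of 118 with Cep95 and 76.0 with Polg2. Nr1h3, which encodes the liver X receptor α, shared peaks of 201 with Acp2 and 98.9 with Madd. Both peaks of Rhoa were weak, at 58.5 with Tcta and 58.0 with Gpx1.

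Gene families differed in how many of their peak-bearing genes shared the peak, set against 40.4% over all coding genes with a gene-end peak. Replication-dependent histone genes, which lie in dense clusters, had a peak at 37 of 67 genes, and 27 of the 37 were at shared peaks (73.0%), 13 peaks in all. Those peaks joined 15 pairs of histone genes with each other, among them H2ac15 with H2bc15 (83.6), H2ac8 with H2bc8 (75.8) and H2ac12 with H2bc12 (58.6), which are divergent pairs with starts 164 to 180 bp apart. The highest-scoring histone peak, 103, was a tandem one at the start of H2bc18 with the stop of H3c13. Histone genes are near-identical copies, so reads could be placed at the wrong copy and their peaks are uncertain.

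Mitochondrial ribosomal protein genes followed, with 20 of 36 peak-bearing genes at shared peaks (55.6%), led by the Mrpl44 peak of 318. Mitochondrial import genes had 6 of 12 (50%), led by Timm10 with Smtnl1 at 193, and splicing factor genes 14 of 29 (48.3%), led by Snrpd3 with Gucd1 at 132. DEAD and DEAH box helicase genes had 9 of 19 (47.4%), led by Dhx38, a splicing helicase gene, with Txnl4b at 192. RNA polymerase subunit genes had 6 of 13 (46.2%), led by Polr2a, and respiratory chain and ATP synthase genes 17 of 37 (45.9%), led by Atp5pb. Apart from the histone and mitochondrial ribosomal genes, these shares lay between 45.9 and 50%. Numbers were small in every family, genes at the same peak are not independent, and no intervals were computed for these shares. All differences between families, here, above and below, are therefore descriptions.

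Below the 40.4% over all coding genes with a gene-end peak were RING finger genes with 5 of 14 (35.7%) and cytosolic ribosomal protein genes with 18 of 51 (35.3%). So were Mediator genes with 3 of 10 (30%), numbered zinc finger genes with 21 of 71 (29.6%) and translation initiation factor genes with 6 of 21 (28.6%). Ubiquitin-specific protease genes had 3 of 12 (25%) and proteasome genes 3 of 17 (17.6%). Counted over all genes, with or without a peak, 5.59% of coding genes were at shared peaks. That share was 18.6% for cytosolic ribosomal protein, 10.7% for initiation factor and 10% for Mediator genes. It was 6.02% for RING finger, 5.88% for proteasome, 5.72% for zinc finger and 5.36% for ubiquitin-specific protease genes. The proteasome peak of highest score, 83.4, joined Psmb3, a core particle subunit gene, to Pcgf2, a Polycomb repressive complex 1 gene, with ends 1000 bp apart. The same peak also reached the window of a tRNA gene. The leading peaks of the others were Slc25a11 with Rnf167 at 154 and Eif2b4, an initiation factor gene, with Snx17 at 174. Olfactory receptor genes had no gene-end peak at 1110 genes, and vomeronasal receptor genes had 2 at 353 genes, neither of them shared. Outside the histones, pairs within a family included 3 of zinc finger genes. Pairs across families included Mrpl47 with Ndufb5, a complex I gene, at 174, Rpl7a with Med22 at 93.6 and Rps28 with Ndufa7 at 86.5.

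Of 18 textbook neighbour pairs, mostly known bidirectional promoters, 6 held a shared peak. Over all head-to-head pairs with ends within 1 kb, 328 of 896 did (36.6%), so the textbook pairs did not stand out. The 6 were Prkdc with Mcm4 (159), a DNA repair kinase and a replicative helicase subunit, Mrps12 with Sars2 (101), Ppat with Paics (78.5), which both encode purine synthesis enzymes, Mcm7 with Ap4m1 (72.2), Trp53, the tumour suppressor p53, with Wrap53 (53.5), and the mitochondrial chaperonin pair Hspd1 with Hspe1 (52.2). The other 12 had no gene-end peak at either gene, among them Surf1 with Surf2, Atm with Npat, Psmb9 with Tap1, Col4a1 with Col4a2, Tcp1 with Mrpl18, Sirt3 with Psmd13, Ranbp1 with Trmt2a, Hars with Hars2, Abcg5 with Abcg8 and Brca1 with Nbr1. No pair of the 18 had a peak at 1 gene alone. Of these, Tcp1 with Mrpl18 lay 1458 bp apart and Abcg5 with Abcg8 6709 bp apart. The list only holds peaks past the caller's limit, so a pair without a peak is a pair not listed.

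Promoter windows of 300 bp, 250 bases before and 50 after the start, were available for 17486 coding genes, and the start they use was the annotated gene end in 60.5% of them and within 100 bp of it in 77.4%. The 676 windows of head-to-head genes at shared peaks had a median CpG observed-over-expected ratio of 0.848 (0.833 to 0.867). It was 0.748 (0.714 to 0.773, n = 131) for the start gene of tandem pairs at shared peaks, 0.818 (0.809 to 0.837, n = 1110) for head-to-head genes within 1 kb with no gene-end peak of their own, 0.804 (0.791 to 0.817, n = 1427) for genes with a peak of their own at the start, and 0.577 (0.566 to 0.588) for all coding genes. Over all 1049 genes at shared peaks with a window, which include the head-to-head and tandem start genes at shared peaks, it was 0.812 (0.796 to 0.832). This was above the median of all genes. The printed windows differed widely: Prkcsh had 29 CpG dinucleotides and a ratio of 1.15, Wdr77 25 and 0.952, and H2bc15 3 and 0.253 at a GC content of 40%.

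The 7 motifs searched on both strands were compared between head-to-head windows with a shared peak and those of head-to-head genes with no gene-end peak of their own. The ETS-type CCGGAAG occurred in 28.3% (24.9 to 31.8%) of windows with a shared peak and in 24.955% (22.4 to 27.6%) of those without, in 24.4% of windows of genes with a peak of their own and in 11.9% of all coding windows. In the same order, the YY1-type ATGGCGG occurred in 11.98, 11.4, 10.6 and 5.44%, the NRF1-type GCATGCG in 7.10, 7.57, 8.34 and 4.50%, the Sp1-type GGGCGG in 59.5, 66.7, 64.5 and 46.3%, the NF-Y-type CCAAT in 38.6, 43.2, 37.8 and 39.2% and the TBP-type TATAAA in 6.51, 4.68, 7.22 and 13.3%. For 5 of these 6 the intervals of head-to-head windows with and without a peak overlapped. GGGCGG was the exception per window, but with the pair as the unit its shares of 74.4% (69.3 to 79.0%) with a shared peak and 80.1% (76.5 to 83.4%) with none had intervals that overlapped too. Apart from CCAAT, motif shares in all 3 promoter classes lay on the same side of the share in all genes. Windows of a pair overlap when the starts are close, so a match can count for both genes and the intervals are too narrow.

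The seventh, CTCGCGA, was more frequent at head-to-head starts with a shared peak than at those with no gene-end peak of their own. It forms the centre of a palindromic element that is bound by Kaiso (ZBTB33) in human cells, so a full element matches on both strands at an offset of 1 base. It occurred in 10.5% of head-to-head windows with a shared peak (8.29 to 13.1%) and in 4.14% of those without (3.05 to 5.49%). With the pair as the unit and a match in either window, 44 of 328 pairs within 1 kb with a shared peak had it (13.4%, 9.92 to 17.6%) and 35 of 548 pairs with no gene-end peak (6.39%, 4.49 to 8.77%), and the intervals did not overlap. Per window it also occurred in 7.01% of windows of genes with a peak of their own at the start (5.74 to 8.46%), in 5.34% of the start genes of tandem pairs at shared peaks (n = 131) and in 2.75% of all coding windows. A match is a description of letters and not of a bound site.

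Head-to-head peaks with CTCGCGA in either window had higher scores, a comparison made after the values were seen. Their median was 98.0 (87.2 to 121.7, n = 44), against 78.0 (73.6 to 82.3, n = 285) without it. Over 4 equal groups of head-to-head peaks from the lowest to the highest scores, 7.23, 8.54, 18.3 and 19.5% had it. Peaks of 1 gene at its start showed the same order, with 102 (83.5 to 107, n = 101) in peaks with it and 72.9 (70.8 to 74.7, n = 1329) in peaks without, so the pattern was not particular to shared peaks. At head-to-head peaks CCGGAAG gave 82.3 (77.8 to 99.3) with and 77.7 (72.2 to 83.6) without. GGGCGG gave 78.0 (73.4 to 82.6) with and 88.2 (77.4 to 109.6) without, and for both motifs the intervals overlapped. At peaks of 1 gene at its start they did not overlap. There CCGGAAG gave 81.15 (74.22 to 86.93) with and 72.15 (70.07 to 74.18) without. GGGCGG gave 71.59 (69.52 to 73.54) with and 79.29 (74.18 to 82.85) without.

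Among the 20 highest-scoring head-to-head peaks 6 had CTCGCGA, against 44 of all 329 such peaks at 2 genes. The 20 were chosen by score, so this count is a description. The 6 were Atp5pb with Wdr77, Mad1l1 with Nudt1, Mkks with Slx4ip, Styxl1 with Mdh2, the gene of mitochondrial malate dehydrogenase, Pole3 with 4933430I17Rik and Slc26a8 with Mapk14, the gene of the stress kinase p38α. In the printed windows it stands at bases 31 to 37 and 205 to 211 of Wdr77, with a further match on the other strand at 99 to 105, at bases 62 to 68, 189 to 195 and 223 to 229 of Mdh2, and at 224 to 230 of Nudt1, with another on the other strand at 203 to 209. The matches of Wdr77 and Mdh2 lie within the stretch between the starts printed in capitals and those of Nudt1 lie upstream of it, while the Prkcsh window, at a peak of 253, holds none. The Rps18 window has CCGGAAG at 94 to 100 and 176 to 182, and that of H2bc15 has 3 copies of CCAAT, a box known from histone promoters. Psmd13, without a peak, has CCGGAAG at 245 to 251 and no CTCGCGA.

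**Figure D5:**
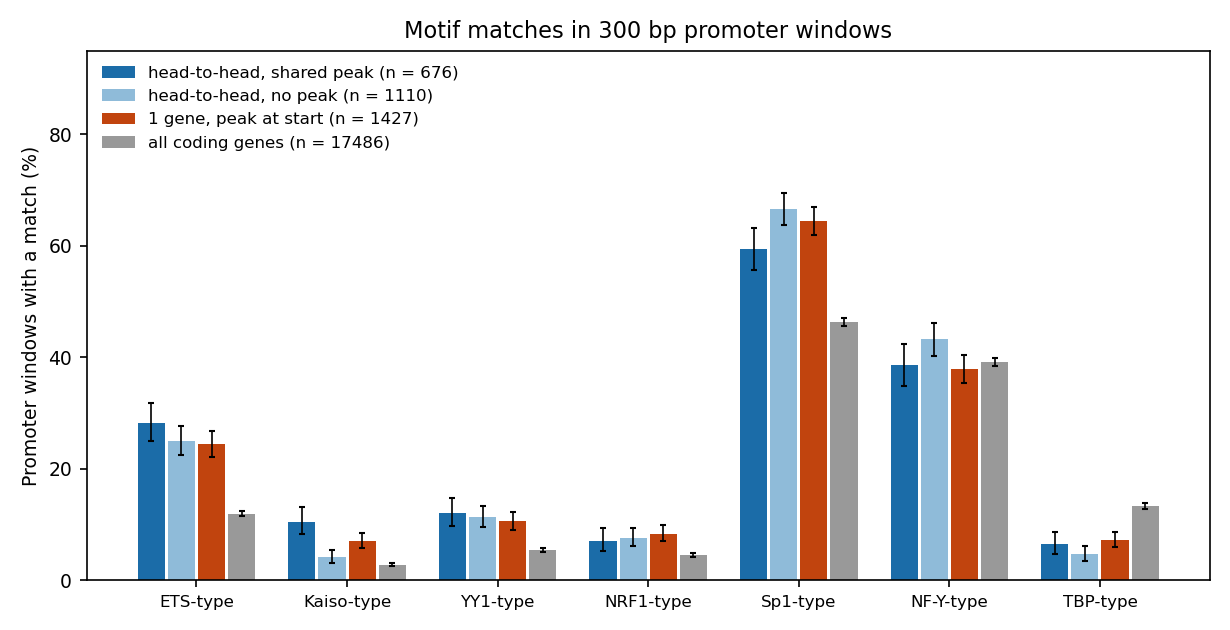
Percentage of 300 bp promoter windows with a match to each of 7 motifs on either strand, with exact 95% intervals as error bars. Bars from left to right in each group are head-to-head genes at a shared peak (n = 676), head-to-head genes within 1 kb with no gene-end peak of their own (n = 1110), genes with a peak of their own at the start (n = 1427) and all coding genes (n = 17486); the Kaiso-type bars are 10.5, 4.14, 7.01 and 2.75%.

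Some shared peaks also reached genes that do not encode proteins. This was so for 49 shared peaks (7.98%) and for 369 peaks of 1 coding gene (19.9%). At shared peaks these were lncRNA genes in 26 cases, miRNA genes in 10, snoRNA genes in 6, and snRNA and tRNA genes in 3 each. Among the named peaks, that of Med16 and R3hdm4 also reached the snRNA gene Gm24019, that of Sirt4 and Pxn reached Gm13836, Gm24265 and Gm24407, and that of Hes7 and Aloxe3 reached tRNA genes. At such peaks the ChIP signal cannot be assigned to the coding pair alone.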

How the data were processed

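Peak calling was done by the authors with MACS in Galaxy, per the file headers. Bowtie, Picard and build mm10 are named in the submitters' processing notes. Not given in the sources used here were versions, settings and any use of IgG in the call. Each peak's deposited score was assigned by the caller and served only within the list. Starts in the deposited file count from 0 and were raised by 1 base. Genes came from the RefSeq GRCm38.p6 gene table, and strand from the RefSeq promoter table, which covered 17492 of 21887 coding genes (79.9%). A pair was classed from strands and from the closest pair of ends reached by the peak. A lone end had no other coding gene end within 2 kb. Motifs were searched on both strands. Python 3.11.15, pandas 2.3.3, numpy 2.4.6, SciPy 1.17.1 and matplotlib 3.10.9 were used, and classing was checked on simulated data.

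Members, families and textbook pairs were chosen with earlier results of these data known. Named peaks are the 12 highest-scoring, up to 6 with most genes, the 5 widest, the 3 lowest-scoring, the highest per family and the 2 highest per layout, plus all textbook pairs, and some of these are not reported here. Genes at several shared peaks, the closest and the lowest tail-to-tail examples, pairs across families, the peaks with CTCGCGA and its relation to score were chosen after their values were seen. The alternatives were score, window, overlap, midpoint, start-only and pair-type rules, and peaks on the 33 listed positions of other contigs were left out.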

Additional observations from a re-analysis of the deposited data

How the results depend on the processing

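Of 61 values recomputed under other settings, 43 stayed within their interval or within 1.5 times the count as reported and 18 did not. Peaks at or above the median score left 365 shared peaks, and 23.1% of close head-to-head pairs held one, since fewer peaks entered. The midpoint rule, and equally the rule of at least 50% of the peak in the window, gave a shared share of 22.7% with 73.9% head-to-head pairs, and windows of 500 bp gave 22.4% and 74.3%. Windows of 5 kb gave 1152 shared peaks, a share of 39.5%, 39.8% head-to-head pairs and a spacing of 278 bp. Starts alone, for genes with strand, gave 351 peaks, a share of 17.6%, 58.4% above the median score of peaks of 1 gene and 95.01% head-to-head pairs, since stops no longer counted. Head-to-head pairs alone had a CpG ratio of 0.848, against 0.812 for all genes at shared peaks, and CTCGCGA in 10.5% of windows, against 7.82%. The cause of the other changes was not tested. Over the settings tried, 52.8 to 58.4% of shared peaks exceeded the median score of peaks of 1 gene and 61.3 to 66.9% their median width. The interval for score included 50% with peaks at or above the median score (47.6 to 58.1%) and with windows of 5 kb (49.8 to 55.7%). It also did so under the midpoint and 50% overlap rules (49.4 to 58.0%) and without chromosomes X and Y (49.96 to 58.0%). No paired analysis was possible because each antibody had 1 library and only the anti-Usp16 list was analysed. Read depth is unknown, weaker sites are not listed, and neighbouring genes at a peak are not independent.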

Other observations

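The proportion of shared peaks among coding-end peaks varied between chromosomes. It was 38.3% on chromosome 17 (49 of 128, 29.8 to 47.3%) and 33.3% on chromosome 19 (30 of 90, 23.7 to 44.1%), against 24.9% over all assembled chromosomes. It was lowest on chromosome X at 9.09% (3 of 33, 1.92 to 24.3%) and on chromosome 18 at 10.9% (6 of 55, 4.11 to 22.2%). These chromosomes were picked as the extremes of the list after their values were seen. The number of coding gene pairs with ends within 1 kb was 221 on chromosome 17, 131 on 19, 73 on X and 398 on 18, and its part in these shares was not tested.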
